A study of Mus musculus with 8 samples.

Results

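Tumours and adjacent liver of mice given the pT3 mA3 plasmid were compared across all genes. The comparison held 4 of the series' 8 RNA sequencing libraries, chosen by their labels alone: 2 mA3 tumour libraries and 2 mA3 adjacent libraries. Per the labels, the mice were age-matched males whose liver tumours were induced with the carcinogen diethylnitrosamine (DEN), tissue came from 8 months after DEN, and the plasmid carried mouse APOBEC3B. The titles abbreviate the plasmid's gene as mA3, and mouse Apobec3 was taken as that gene. Tissue with titles ending in N, called adjacent here, was described as relatively normal, so it too had been exposed to DEN and to the plasmid. The titles number the mA3 mice 1 and 2, and each gave 1 tumour and 1 adjacent library. The other 4 libraries came from DEN-treated males given the empty pT3 vector, mice 1 and 9, again with a tumour and an adjacent library each. Strain, plasmid dose, which cells took up the plasmid and whether a library pooled nodules were not stated in the labels. Nothing beyond the numbering says that the mice were separate animals, so p-values measure only the spread between these samples.

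DEN is activated to a DNA-damaging agent by cytochrome P450 enzymes of hepatocytes, and the tumours that follow in mice are hepatocellular, often with an activated Ras and MAP kinase pathway. Such tumours commonly switch on genes of fetal liver, such as alpha-fetoprotein, and lose metabolic functions of the adult hepatocyte. Apobec3 encodes a cytidine deaminase that acts on single-stranded DNA and is known for restricting retroviruses and mobile elements. Levels below are CPM, counts scaled to a common library size after TMM normalisation. A log2 difference is the tumour minus adjacent value fitted by edgeR, given ± its standard error (SE, n = 2 against 2), and a gene rose or fell when its Benjamini-Hochberg adjusted p over all tested genes was under 0.05.

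The 8 libraries held 12969929 to 22882531 counts, and the 4 mA3 libraries 14311585 to 22882531. Across genes, the log2 CPM of the mA3 tumours correlated with each other at r = 0.973, the mA3 adjacent libraries at 0.961, and tumour with adjacent libraries at 0.864 to 0.895. The tumour library of vector mouse 1 stood apart from the other tumours: it correlated with the adjacent library of mA3 mouse 1 at 0.959 and with the tumour of vector mouse 9 at 0.912. It enters no mA3 value, but it does enter the estimate of spread and the comparison with vector mice. Albumin took 17.5% and 16.5% of the counts in the mA3 tumours against 3.29% and 3.87% in the adjacent libraries. The mitochondrial genome took 3.51% and 3.81% in the tumours against 9.96% and 7.74% in adjacent liver.

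The plasmid's gene came first. Apobec3 (GRCm38 chr15:79891659-79915906, plus strand) stood at 45.0 and 35.1 CPM in the adjacent libraries of mA3 mice 1 and 2, and at 10.6 and 15.3 CPM in their tumours. Both tumours lay below both adjacent libraries, with a log2 difference of -1.63 ± 0.588 that did not pass (adjusted p = 0.175). The fit to the 4 mA3 libraries alone gave an adjusted p of 0.0137, the lowest among the alternatives, and the adjusted p ran from 0.0740 to 0.632 when each of the 8 libraries was left out. In vector mice the adjacent libraries held 2.71 and 9.96 CPM and the tumours 7.85 and 15.2 CPM. Both mA3 adjacent libraries lay above both vector adjacent libraries, while the mA3 tumours, at 10.6 and 15.3 CPM, were close to the vector tumours. Plasmid and endogenous transcripts cannot be told apart in these gene counts.

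Of 15009 genes tested, 118 rose in mA3 tumours (0.786%) and 60 fell (0.4%). The rising genes had a median log2 difference of 3.94, and 35 of them were under 1 CPM in both adjacent libraries. The falling genes had a median of -3.02, and none was under 1 CPM in both adjacent libraries. Over all 15009 genes the median was -0.00261 and the quartiles were -0.49 and 0.48. Without a test, both tumours lay above both adjacent libraries in 29.7% of genes and below both in 28.3%. The smallest adjusted p was 0.0334, close to the threshold. The number that passed depended on which libraries gave the estimate of spread, on the method and on the filter for low counts. The filter kept 15675 genes without the tumour of vector mouse 1 and 15704 without that of vector mouse 9. Biological variation between replicates was 39.1% (coefficient of variation) over 8 libraries and 27.3% over the 4 mA3 libraries. With the 4 mA3 libraries alone, 1157 of 14567 genes rose (7.94%) and 1112 fell (7.63%), and these included all 178 genes of the 8-library fit. With the mouse as a block, 317 rose (2.11%) and 243 fell (1.62%). The shares in these fits are the background for the counts of list members below. DESeq2 called 825 rising (5.5%) and 782 falling (5.21%), limma-voom 65 (0.433%) and 46 (0.306%). With no filter on low counts 1080 of 23237 genes rose (4.65%) and 983 fell (4.23%), and without the tumour of vector mouse 1 the counts were 610 (3.89%) and 480 (3.06%). Without the tumour of vector mouse 9 they were nearly the same, 592 (3.77%) and 482 (3.07%), and without the adjacent library of that mouse 187 and 121. Leaving out any 1 of the 4 mA3 libraries ended every call, with 1584 to 2231 genes then at an unadjusted p under 0.05 against 3002 with all libraries.

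Within each mouse, the tumour minus adjacent difference of log2 CPM had the same sign in both mice for 70.5% of the 15009 genes. The differences of mouse 1 and mouse 2 correlated at r = 0.754 across genes, which are not independent replicates. The plot of mouse 1 against mouse 2 places the genes that passed along the diagonal. Igsf23, which did not pass, lay above 0 in mouse 1 and below 0 in mouse 2.

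**Figure D1:**
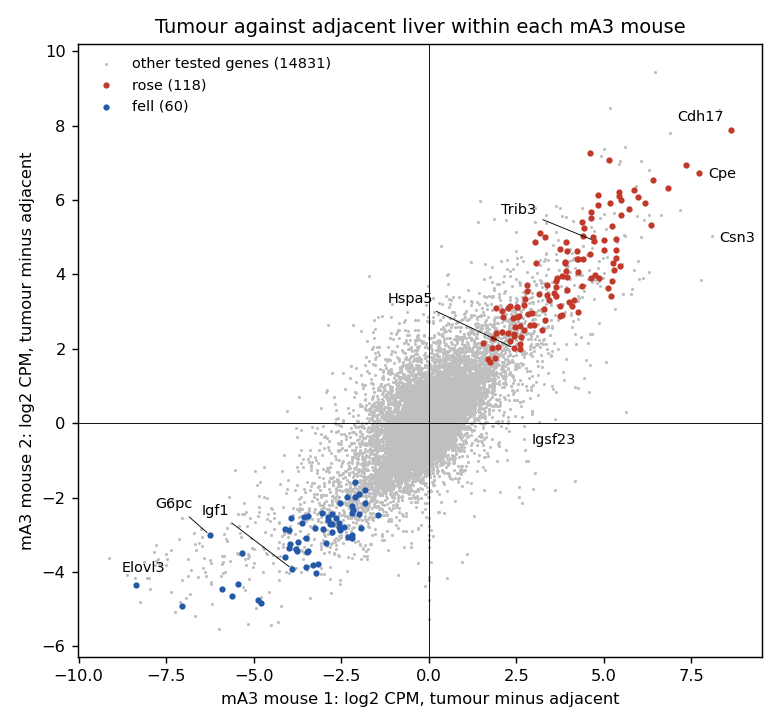
Each point is 1 of 15009 tested genes; the horizontal axis is the log2 CPM difference, tumour minus adjacent, in mA3 mouse 1 and the vertical axis the same in mA3 mouse 2. The 118 genes that rose (red) lie in the upper right and the 60 that fell (blue) in the lower left, along a cloud with r = 0.754.

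Several of the genes with the largest rises were under 1 CPM in both adjacent libraries. Cdh17 (chr4:11758147-11817895), a cadherin of the intestinal epithelium, was at 0.131 and 0.0686 CPM in adjacent liver, which was 3 counts and 1 count, and at 94.8 and 41.4 CPM in tumours. Its log2 difference was 9.25 ± 1.31 (adjusted p = 0.0334), and the pooled ratio of 617 had a 95% counting interval of 241 to 2266. Cpe, carboxypeptidase E of the secretory granules of endocrine cells, rose from 1.70 and 1.58 CPM to 379 and 179 CPM (7.40 ± 1.10). Both genes were low in both adjacent libraries and high in both tumours.

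Bex1 rested on 1 count in each adjacent library, and its pooled ratio of 210.1 had an interval of 57.9 to 1739.9. Rasd2, a Ras-like small GTPase, rose unevenly, with 5.66 CPM in tumour 1 and 26.98 CPM in tumour 2. Igdcc4, a membrane protein of the immunoglobulin superfamily, rose from 0.566 and 0.961 CPM to 76.8 and 85.7 CPM. Predicted genes, clone-named (Riken) genes and pseudogenes were left out of the 15 largest rises and falls that are named. Further genes among these 15 rises were Cdhr2, a cadherin of microvilli, Bhlha15, a transcription factor of secretory cells also called Mist1, and the sodium-calcium exchanger Slc24a3. Mpped1, Wfdc15b, Gldn, Fhl3 and Thsd4 completed that group together with Slc7a11 and Akr1c18, described below. The log2 differences of the 15 ran from 5.43 (Thsd4) to 9.25 (Cdh17), and in all of them both tumours lay above both adjacent libraries.

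Markers of liver tumours and fetal liver were mostly higher in tumours. The members of this list, like those of all lists here, were chosen with earlier results of these libraries known. Of 32 members 30 were tested, 7 rose and none fell, against 0.786% rising over all genes, and both tumours lay above both adjacent libraries in 24, against 29.7% of all genes. The list's median log2 difference was 3.79, with 3.71 in mouse 1 and 3.68 in mouse 2. In the fit to the 4 mA3 libraries 20 rose, and with the mouse as a block 13 did, against 7.94% and 2.11% of all genes. Alpha-fetoprotein, Afp, a plasma protein of the fetal liver, was at 9.98 and 5.56 CPM in adjacent liver and at 102 and 184 CPM in tumours (4.19 ± 0.557, adjusted p = 0.0334). Golm1, a Golgi membrane protein released by liver tumours, rose from 5.18 and 4.60 CPM to 100 and 101 CPM (4.36 ± 0.612). The tumours were nearly equal for Golm1, and for Afp both lay above both adjacent libraries.

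Prom1, which encodes the stem and progenitor cell antigen CD133, rose from 1.48 and 1.78 CPM to 38.8 and 43.8 CPM (4.66 ± 0.439). Akr1c18 encodes the progesterone-inactivating 20alpha-hydroxysteroid dehydrogenase and has close copies in the mouse genome that may share its reads. It rose from 6.14 and 3.23 CPM to 269 and 247 CPM (5.77 ± 0.707). Anxa2, an annexin of the cell membrane, rose by 3.38 ± 0.566, and the remaining members to rise were Bex1 and Cdh17. Gpc3, glypican 3, is a heparan sulfate proteoglycan that pathologists stain to recognise hepatocellular carcinoma. It stood at 1.35 and 1.03 CPM in adjacent liver and at 127 and 794 CPM in tumours, without passing (8.58 ± 1.71, adjusted p = 0.0560). Spink1, a secreted trypsin inhibitor, had 6.54 and 23.0 CPM in tumours against 0.0436 and 0.0686 CPM in adjacent liver (adjusted p = 0.121). The imprinted fetal growth genes H19 and Igf2 did not pass: H19 was at 9.50 and 7.41 CPM in adjacent liver and 10.3 and 14.0 CPM in tumours, and Igf2 stayed at or below 1.48 CPM in all 4 libraries.

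**Figure D2:**
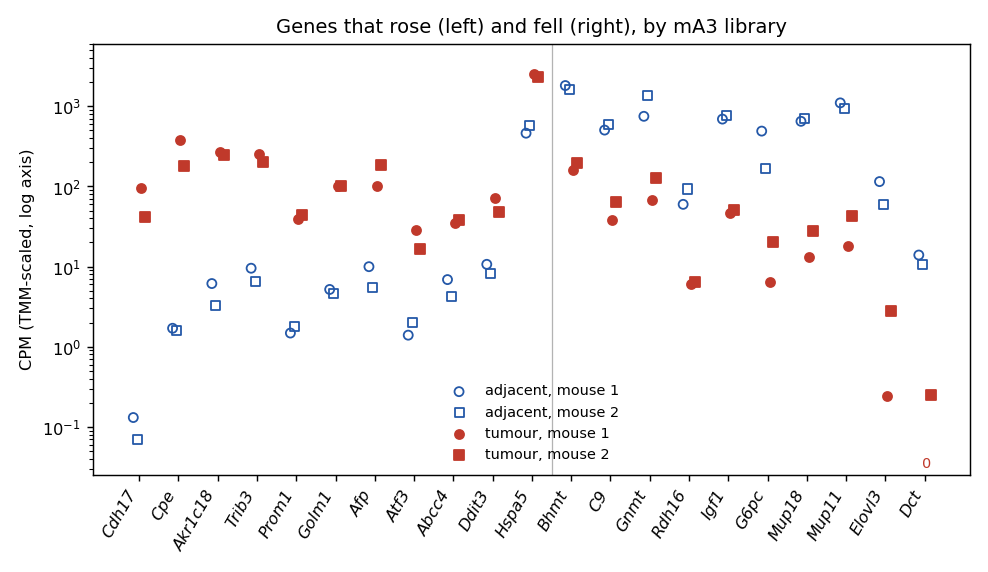
CPM on a log axis for 11 genes that rose (left of the line) and 10 that fell (right), in each of the 4 mA3 libraries; open blue symbols are adjacent liver, filled red symbols tumours, circles mouse 1 and squares mouse 2, and a red 0 marks a library with no count. Tumour and adjacent symbols do not overlap for any of the 21 genes; Cdh17 rises from 0.131 and 0.0686 CPM to 94.8 and 41.4 CPM.

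Several genes of the integrated stress response rose. In this response a stalled ribosome, amino acid shortage or misfolded protein in the endoplasmic reticulum (ER) leads to phosphorylation of eIF2alpha, which slows most translation but favours that of the transcription factor ATF4. All 31 members of the ATF4 list were tested, and 6 rose and none fell, against 0.786% and 0.4% of all genes. With the mouse as a block 9 rose, against 2.11% of all genes. In the fit to the 4 mA3 libraries 14 rose and 1 fell, against 7.94% and 7.63%. The median log2 difference was 1.41, 1.38 in mouse 1 and 1.52 in mouse 2. Trib3 (chr2:152337422-152344032), a pseudokinase induced by ATF4 and CHOP, was at 9.54 and 6.59 CPM in adjacent liver and at 257 and 201 CPM in tumours (4.82 ± 0.615, adjusted p = 0.0334). Ddit3, which encodes CHOP, rose from 10.7 and 8.31 CPM to 71.6 and 47.7 CPM (2.65 ± 0.426, adjusted p = 0.0402). For both genes the tumours lay well above the adjacent libraries in both mice.

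Atf3, another bZIP factor of this response, rose from 1.39 and 1.99 CPM to 28.5 and 16.5 CPM (3.74 ± 0.537). Phgdh, the first enzyme of serine synthesis, rose from 0.654 and 0.549 CPM to 29.8 and 11.2 CPM (5.07 ± 0.689). Slc7a11, the cystine-glutamate exchanger, rose from 0.174 and 0.0686 CPM to 9.99 and 10.4 CPM (6.23 ± 1.06), resting on 5 adjacent counts in all. Stc2, the secreted stanniocalcin 2, also rose (4.59 ± 0.832). Atf4 itself was at 102 and 85.4 CPM in adjacent liver and 165 and 140 CPM in tumours, which did not pass (0.70 ± 0.297, adjusted p = 0.240). Asns, asparagine synthetase, differed in level between the mice in both tissues. It was at 12.3 CPM in adjacent liver and 62.2 CPM in the tumour of mouse 1, and at 2.68 and 12.2 CPM in mouse 2. Each tumour lay above the adjacent library of its own mouse, and Asns did not pass (adjusted p = 0.316). Chac1 did not separate the tissues, with 1.61 and 3.16 CPM in adjacent liver and 2.46 and 2.69 CPM in tumours.

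Chaperones of the ER belong to another arm of the unfolded protein response, which runs through the sensors ATF6 and IRE1 and the factor XBP1. Hspa5 (chr2:34771970-34777547), the chaperone BiP, was at 462 and 577 CPM in adjacent liver and at 2520 and 2330 CPM in tumours (2.22 ± 0.378, adjusted p = 0.0437). Of the list's 29 tested members it alone rose in the 8-library fit, and none fell. In the fit to the 4 mA3 libraries 17 rose and none fell (7.94% and 7.63% over all genes), and without the tumour of vector mouse 1 the fit called 7, against 3.89% of all genes. Both tumours lay above both adjacent libraries in 23 of 29, against 29.7% of all genes. The median log2 difference was 1.00, 1.07 in mouse 1 and 0.83 in mouse 2. The list's summed level was 5912 and 6298 CPM in adjacent liver against 13351 and 12424 CPM in tumours.

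Among the other members, the disulfide isomerase Pdia4 was at 163 and 141 CPM in adjacent liver and 464 and 440 CPM in tumours (1.57 ± 0.315, adjusted p = 0.0560). Hyou1, a nucleotide exchange factor for BiP chosen here after its values were seen, was at 117 and 110 CPM against 332 and 345 CPM (1.58 ± 0.393, adjusted p = 0.0802). Creld2, a secreted stress protein, was at 22.9 and 28.9 CPM against 98.6 and 104 CPM. These genes kept the tissues apart in both mice without passing. Xbp1 was closer, at 274 and 283 CPM in adjacent liver and 473 and 454 CPM in tumours (0.73 ± 0.341, adjusted p = 0.283). Genes of ER translocation and vesicle traffic, 50 tested, had a median of 0.64 with 47 above 0, none passed, and 1 rose with the mouse as a block. Kdelr3, a receptor that returns ER proteins from the Golgi, had the largest difference among them, from 0.261 and 0.137 CPM to 29.0 and 11.8 CPM (adjusted p = 0.0553). Arfgap3 of vesicle traffic and Fkbp11 of the ER were in neither list and rose, by 2.43 ± 0.347 and 2.93 ± 0.480 (adjusted p = 0.0334 and 0.0436). The proteasome's 31 subunits had a median of -0.46 and 28 below 0, and none passed.

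The promoters of both arms were read from RefSeq (GRCm38.p6, 250 bases before to 50 after each gene's start) for the motifs that define them. The ER stress element was searched on both strands as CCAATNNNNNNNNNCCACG, in which N is any base. It was found in 35 of 27025 promoters (0.130%), in 18 of the 10717 promoters of tested genes (0.168%), and in 10 of the 25 ER chaperone genes whose promoter the table held. The 10 sites are printed in the orientation of the motif, with its fixed bases in capitals and the 9-base spacer in lower case to show where these members match. The capitals are the same in each by the search itself, while the spacers differ:
Calr: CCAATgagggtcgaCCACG
Canx: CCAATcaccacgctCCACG
Creld2: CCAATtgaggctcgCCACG
Derl3: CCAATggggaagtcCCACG
Dnajc3: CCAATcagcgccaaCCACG
Ero1b: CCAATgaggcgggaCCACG
Hsp90b1: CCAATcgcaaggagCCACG
Hspa5: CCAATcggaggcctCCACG
Pdia6: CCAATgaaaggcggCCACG
Syvn1: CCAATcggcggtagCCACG
Ero1b is Ero1lb in the deposited table, and Hsp90b1 held 2 matches, of which the 1 farther from the gene start is shown. Their log2 differences ran from -0.04 (Ero1lb) to 2.74 (Derl3). Over all tested genes matched by symbol, the 18 with the motif had a median log2 difference of 0.78 with 14 above 0, and the 10699 without it had 0.01. Of the 18, 9 belong to the ER list, which was chosen with results known, and these had a median of 1.48. The other 9 had a median of 0.12, with 5 above 0. The whole Hspa5 promoter, chr2:34771840-34772139 on the plus strand, is shown because Hspa5 is the member that rose, with the match in capitals. The match starts 65 bases before RefSeq's gene start, which lies inside the span that the deposited table gives for the gene:
Hspa5: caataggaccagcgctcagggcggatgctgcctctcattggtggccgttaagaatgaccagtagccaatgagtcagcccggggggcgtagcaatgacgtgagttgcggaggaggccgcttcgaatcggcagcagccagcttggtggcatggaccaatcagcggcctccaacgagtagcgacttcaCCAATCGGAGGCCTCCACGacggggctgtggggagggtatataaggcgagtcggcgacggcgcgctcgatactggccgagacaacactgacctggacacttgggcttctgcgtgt

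The element bound by ATF4 with C/EBP partners was searched on both strands as TGATGCAA. It was in 251 of the 27025 promoters (0.929%) and in 7 of the 27 ATF4 list genes with a promoter in the table: Aars, Atf3, Chac1, Fgf21, Nupr1, Pycr1 and Slc7a11. Of these 7, Atf3 and Slc7a11 rose, and Aars and Chac1 differed by -0.52 and 0.12 without passing. The 72 tested genes with the motif had a median log2 difference of -0.06, and 35 of them lay above 0. Of the 72, 8 belong to the ER chaperone or ATF4 list, both chosen with results known. These 8 had a median of 3.32, with 7 above 0. The other 64 had a median of -0.14, with 28 above 0. The promoters of the pair that rose are shown, both on the minus strand, Atf3 at chr1:191183284-191183583 and Slc7a11 at chr3:50443564-50443863, with matches on either strand in capitals:
Atf3: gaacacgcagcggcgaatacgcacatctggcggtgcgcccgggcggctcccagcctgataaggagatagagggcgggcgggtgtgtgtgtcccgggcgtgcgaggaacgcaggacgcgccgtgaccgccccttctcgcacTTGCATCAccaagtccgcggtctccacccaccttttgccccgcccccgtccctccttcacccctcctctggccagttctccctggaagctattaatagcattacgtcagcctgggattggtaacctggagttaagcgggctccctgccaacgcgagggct
Slc7a11: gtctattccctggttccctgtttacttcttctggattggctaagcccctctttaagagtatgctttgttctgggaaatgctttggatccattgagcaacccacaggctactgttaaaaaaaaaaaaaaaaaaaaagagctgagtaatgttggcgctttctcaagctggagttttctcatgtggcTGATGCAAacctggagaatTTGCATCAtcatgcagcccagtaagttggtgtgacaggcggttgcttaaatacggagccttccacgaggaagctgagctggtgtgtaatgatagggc
The Atf3 window held 1 match and the Slc7a11 window 2, on opposite strands. A match is a description of the letters in the window.

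Feedback genes of the MAP kinase pathway, which ERK signalling induces and which then restrain it, were mostly higher in tumours. Of 16 tested, 2 rose and none fell, against 0.786% and 0.4% of all genes, and the median was 1.59. With the mouse as a block 5 rose, against 2.11% of all genes. In the fit to the 4 mA3 libraries 9 rose, against 7.94%. Dusp4, a phosphatase of nuclear ERK, rose from 1.52 and 2.47 CPM to 22.9 and 19.4 CPM (3.41 ± 0.463, adjusted p = 0.0334). Dusp5, a phosphatase of the same kind, rose from 1.92 and 1.17 CPM to 42.0 and 53.7 CPM (4.93 ± 0.721). Both genes were low in both adjacent libraries and alike in the tumours. Etv4, an Ets factor downstream of ERK, was at 0.0871 and 0.0686 CPM in adjacent liver and 1.87 and 3.98 CPM in tumours (adjusted p = 0.0636). Dusp6 and Spry4, which are also ERK feedback genes, did not pass, with log2 differences of 0.85 ± 0.530 and 0.18 ± 0.508. Among 18 immediate early factors tested, Atf3 alone rose (2 members with the mouse as a block). Egr1, chosen here after its values were seen, had the largest difference of that list. It was at 13.5 and 5.42 CPM in adjacent liver and 205 and 259 CPM in tumours (4.61 ± 0.918, adjusted p = 0.0560).

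Cell cycle genes differed by phase in their medians, and none of them passed. All 22 mitosis genes were higher in both tumours than in both adjacent libraries, against 29.7% of all genes, and their median was 1.78. Mki67, the proliferation antigen Ki-67, was at 8.84 and 2.47 CPM in adjacent liver and 26.5 and 19.3 CPM in tumours (2.00 ± 0.753, adjusted p = 0.188). Top2a and Cdk1, of chromosome separation and mitotic entry, differed by 1.85 ± 0.785 and 1.75 ± 0.631. The 21 DNA replication genes tested had a median of 0.26, with 14 above 0. The 12 members of the G1 list had a median of 0.26, and 1 rose with the mouse as a block. Among them Ccnd1, cyclin D1, was at 7.80 and 21.3 CPM in adjacent liver and 87.3 and 111 CPM in tumours (2.77 ± 0.891, adjusted p = 0.138). Cdkn2b and Cdkn2a of the same list, inhibitors of the cyclin D kinases, were at 0.392 and 0.755 CPM and at 0.436 and 0.892 CPM in adjacent liver, and reached 49.2 and 41.4 CPM and 8.02 and 12.1 CPM in tumours (adjusted p = 0.0538 and 0.105). The 18 p53 targets had a median of 1.26 and none passed. With the mouse as a block 3 rose, against 2.11% of all genes. In the fit to the 4 mA3 libraries 8 rose, against 7.94%. Of the 18, Cdkn1a, the inhibitor p21, was at 3.62 and 2.20 CPM against 33.4 and 44.0 CPM (adjusted p = 0.297), while Mdm2 differed by 0.67 ± 0.402.

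Cholesterol synthesis genes, which the factor SREBP2 controls as a group, were higher in both mA3 tumours without passing in the 8-library fit. Of 29 tested, both tumours lay above both adjacent libraries in 24, against 29.7% of all genes, and the median was 1.63. In the fit to the 4 mA3 libraries 18 rose, against 7.94% of all genes, and none fell. With the mouse as a block 5 rose. Sqle and Hmgcs1 were chosen here after their values were seen, and Sqle had the largest difference of the list. Sqle, squalene epoxidase, was at 21.3 and 29.7 CPM in adjacent liver and 271 and 270 CPM in tumours (3.41 ± 0.936, adjusted p = 0.0995). Hmgcs1, which makes the precursor HMG-CoA, was at 128 and 143 CPM against 632 and 654 CPM (2.25 ± 0.746). The tumours were almost equal for both genes. Srebf2, the gene of SREBP2, and the sterol acyltransferase gene Soat2 had the smallest p values of the list, with differences of 1.65 ± 0.439 and 1.63 ± 0.316 (adjusted p = 0.0935 and 0.0538).

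Fatty acid genes went both ways. Scd2, a stearoyl-CoA desaturase that adult liver expresses little, rose from 19.8 and 18.1 CPM to 294 and 359 CPM (4.10 ± 0.723, adjusted p = 0.0449). Elovl3, an elongase of very long chain fatty acids, fell from 115 and 59.0 CPM to 0.246 and 2.82 CPM (-5.80 ± 1.05, adjusted p = 0.0481). The 27 tested genes of lipogenesis, elongation and desaturation had a median of -0.27, and with the mouse as a block 2 rose and 4 fell. The lipid droplet genes Mgll, monoglyceride lipase, and Plin5, perilipin 5, fell by 2.71 and 2.62 on the log2 scale, the only calls among 22 tested. Fasn, fatty acid synthase, was at 456 and 327 CPM in adjacent liver and 259 and 403 CPM in tumours, so the tissues overlapped. Scd1, the main desaturase of adult liver, was at 2508 and 5196 CPM against 1189 and 1454 CPM without passing (-1.54 ± 1.21).

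Among the genes that fell were secreted products of the adult liver that depend on growth hormone. With the mouse as a block, 1 gene of the growth hormone and Igf axis rose and 4 fell, of 19 tested, against 2.11% and 1.62% of all genes. Igf1 (chr10:87858265-87937042), the growth factor that the liver secretes under growth hormone, was at 693 and 761 CPM in adjacent liver and at 46.4 and 50.3 CPM in tumours (-3.91 ± 0.619, adjusted p = 0.0382). The growth hormone receptor gene Ghr was at 576 and 611 CPM against 70.8 and 127 CPM and did not pass (-2.58 ± 0.849, adjusted p = 0.146). Both tumours were below both adjacent libraries for each gene. In the same axis Igfbp1, a binding protein for Igf1 chosen here after its values were seen, was at 20.3 and 12.1 CPM in adjacent liver and at 2449 and 2718 CPM in tumours. Its log2 difference of 7.31 ± 2.27 did not pass (adjusted p = 0.128).

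Major urinary proteins are secreted pheromone carriers that male liver makes under growth hormone pulses. Of 20 tested Mup genes 2 fell, 5 fell with the mouse as a block and all 20 fell in the fit to the 4 mA3 libraries. Over all genes these shares were 0.4%, 1.62% and 7.63%. All 20 Mup genes had both tumours below both adjacent libraries, against 28.3% of all genes. Their summed level was 83505 and 77141 CPM in adjacent liver and 3272 and 4121 CPM in tumours. Mup11 fell from 1105 and 944 CPM to 18.3 and 43.2 CPM (-5.06 ± 0.855, adjusted p = 0.0437), and Mup18 from 650 and 706 CPM to 13.04 and 28.1 CPM (-5.04 ± 0.811, adjusted p = 0.0402). The Mup genes are near-identical copies, so how reads were shared among them is uncertain. The median of 22 male-biased liver genes was -3.34, with Elovl3 the member that fell. With the mouse as a block 6 fell, against 1.62% of all genes. In the fit to the 4 mA3 libraries 19 fell, against 7.63%. The 17 female-biased genes tested had a median near 0 (0.00502), with 9 above 0 and 8 below, 1 that rose, and 4 rising and 4 falling in the fit to the 4 mA3 libraries. The 1 that rose was Cyp2a4, from 172 and 128 CPM to 2406 and 2004 CPM (3.88 ± 0.571, adjusted p = 0.0343), with the same caution because Cyp2a5 is a near-identical copy.

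Drug-metabolising enzymes mostly had lower values in tumours. Of 45 tested xenobiotic cytochrome P450 genes, 38 lay below 0 and the median was -2.42. Cyp2c67 fell from 284 and 292 CPM to 42.1 and 44.3 CPM (-2.74 ± 0.499, adjusted p = 0.0481), Cyp2a4 was the 1 that rose, and the fit to the 4 mA3 libraries called 23 falling and 3 rising. With the mouse as a block 9 fell and 2 rose. Over all genes, 7.63% fell and 7.94% rose in the fit to the 4 mA3 libraries, and 1.62% and 2.11% with the block. The 11 listed Cyp4 omega-hydroxylases had a median of -2.39 with no call, and with the mouse as a block 2 fell and 1 rose. Of the 11, 8 fell and 1 rose in the fit to the 4 mA3 libraries. Cyp4f16, a Cyp4 gene outside that list, rose from 2.74 and 1.85 CPM to 16.3 and 17.1 CPM (2.85 ± 0.493, adjusted p = 0.0443). Ugt, Sult and Gst conjugation enzymes, 48 tested, had a median of -0.97 with 42 below 0 and no call, and with the mouse as a block 10 fell and 1 rose. Of 47 conjugation enzymes tested in the fit to the 4 mA3 libraries, 20 fell and 1 rose. Targets of NRF2, the oxidant response factor, lay on both sides of 0: 9 of 21 lay above 0 and the median was -0.20, with Slc7a11 and Abcc4 rising (3 rose and 1 fell with the mouse as a block).

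Most genes of bile acid synthesis and uptake had lower values in tumours, and an efflux pump rose. Abcc4 (chr14:118482692-118706219), a pump of the basolateral membrane, rose from 6.88 and 4.26 CPM to 34.6 and 38.6 CPM (2.71 ± 0.339, adjusted p = 0.0334). It was the only call among the 23 tested genes of bile acid synthesis and transport, whose median was -1.51 with 20 below 0. Cyp7a1, the rate-limiting enzyme of bile acid synthesis, was at 203 and 259 CPM in adjacent liver and at 1.13 and 24.3 CPM in tumours (-4.18 ± 1.44, adjusted p = 0.160). Slc10a1, the main bile acid uptake carrier, was at 469 and 541 CPM against 74.4 and 114 CPM (-2.42 ± 0.514, adjusted p = 0.0627). The fit to the 4 mA3 libraries called 14 members falling and 2 rising, against 7.63% and 7.94% of all genes. With the mouse as a block 6 fell, against 1.62% of all genes.

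Amino acid breakdown and the methionine cycle held several abundant enzymes that fell. Of 40 tested genes, 4 fell (9 with the mouse as a block), against 0.4% (1.62%) of all genes. In this list 38 lay below 0 and the median was -1.03. Of the 40, 21 fell in the fit to the 4 mA3 libraries, against 7.63% of all genes. Bhmt, which remethylates homocysteine with betaine, fell from 1817 and 1631 CPM to 160 and 193 CPM (-3.28 ± 0.515, adjusted p = 0.0367). Gnmt, the glycine N-methyltransferase that buffers the methyl donor S-adenosylmethionine, fell from 751 and 1368 CPM to 68.1 and 126 CPM (-3.45 ± 0.595). Ddc, aromatic amino acid decarboxylase, and Cth, which makes cysteine, fell by 3.14 and 2.27 on the log2 scale. Cth was at 273 and 444 CPM in adjacent liver and at 60.4 and 88.0 CPM in tumours, and in all 4 genes both tumours lay below both adjacent libraries.

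G6pc, the glucose-6-phosphatase that releases glucose from liver, fell from 491 and 166 CPM to 6.35 and 20.6 CPM (-4.61 ± 0.801, adjusted p = 0.0447). It was the 1 call among the 13 listed genes of gluconeogenesis and glycogen. Pck2 and the glycogen phosphorylase gene Pygb were outside that list and rose, by 3.17 ± 0.543 and 3.10 ± 0.531 (adjusted p = 0.0437 for both). Pck1, which commits to gluconeogenesis, was at 2705 and 1371 CPM against 404 and 430 CPM (-2.29 ± 0.667, adjusted p = 0.112). The 14 urea cycle and ammonia genes had a median of -1.21 with no call (1 fell with the mouse as a block), and Cps1, the first enzyme of the cycle, differed by -1.31 ± 0.498. Of the 14, 7 fell in the fit to the 4 mA3 libraries, against 7.63% of all genes. Other genes among the 15 largest falls were Dct, an enzyme of melanin synthesis, which was at 13.9 and 10.6 CPM in adjacent liver and had no count in tumour 1 and 6 counts in tumour 2. The organic anion carrier Slco2b1, the retinol dehydrogenase Rdh16, the protease inhibitor Serpine2, Csrp3, Plekhb1 and Wfdc21 were also among them. Hamp2, a close copy of the iron hormone gene Hamp with which it may share reads, fell from 25 and 22 counts to 0 and 1, a ratio of 55.7 with a 95% counting interval of 9.52 to 2246.

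Mitochondrial genes had lower values in tumours without passing. All 60 nuclear respiratory chain genes lay below 0, with a narrow range from -1.52 to -0.53 and a median of -0.94. In the fit to the 4 mA3 libraries 23 fell, against 7.63% of all genes. Cycs, cytochrome c, was at 131 and 175 CPM in adjacent liver and 67.6 and 62.3 CPM in tumours (-1.24 ± 0.319, adjusted p = 0.0858). All 13 protein genes of the mitochondrial genome lay below 0 with a median of -1.25, and 9 fell in the fit to the 4 mA3 libraries. mt-Co3, a subunit of cytochrome c oxidase, was at 5337 and 6077 CPM against 2035 and 2047 CPM (adjusted p = 0.177). The 36 tested genes of fatty acid oxidation and ketogenesis had a median of -0.97 with 31 below 0 and no call. With the mouse as a block 1 fell, against 1.62% of all genes. Of 35 tested in the fit to the 4 mA3 libraries, 15 fell and 1 rose, against 7.63% and 7.94% of all genes. The 67 tested cytosolic ribosomal proteins had a median of -0.12, with the mice on opposite sides (0.34 in mouse 1 and -0.45 in mouse 2).

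Most secreted plasma proteins had higher values in tumours. Alb was at 31679 and 38031 CPM in adjacent liver and at 171220 and 156531 CPM in tumours (2.23 ± 0.813, adjusted p = 0.178). Kng1, kininogen, was at 1970 and 1597 CPM against 9146 and 8073 CPM (2.27 ± 0.585, adjusted p = 0.0856). Of 23 plasma protein genes 17 lay above 0, the median was 0.67 and none passed. The fit to the 4 mA3 libraries called 8 rising and 1 falling, against 7.94% and 7.63% of all genes. Ttr, transthyretin, a carrier of thyroid hormone, went the other way, at 5872 and 5244 CPM against 3806 and 4654 CPM. The 32 coagulation and complement genes had a median of -0.20 and 2 calls, both falling (4 with the mouse as a block). These were C9 of the membrane attack complex (-3.42 ± 0.600, adjusted p = 0.0449) and the mannose-binding lectin gene Mbl1 (-2.58 ± 0.466, adjusted p = 0.0481). The hepatocyte factor gene Hnf4a was at 372 and 726 CPM in adjacent liver and 602 and 613 CPM in tumours, and the median of 22 hepatocyte transcription factors was -0.65 with no call.

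The 6 hepatocyte markers summed to 48073 and 53893 CPM in the adjacent libraries and to 207839 and 190440 CPM in the tumours, so the defining markers of liver were present in each. In bulk tissue, fewer cells of a type and less RNA per cell cannot be told apart. All 13 Kupffer cell markers lay below 0, and 12 had both tumours below both adjacent libraries, against 28.3% of all genes. Their summed level was 692 and 859.7 CPM in adjacent liver and 311 and 274 CPM in tumours. None passed, and 5 fell with the mouse as a block and 10 in the fit to the 4 mA3 libraries, against 1.62% and 7.63% of all genes. Clec4f, a lectin of resident Kupffer cells, was at 135 and 107 CPM against 25.2 and 20.6 CPM (-2.40 ± 0.458, adjusted p = 0.0536), whereas the general macrophage gene Adgre1 overlapped between the tissues (7.84 and 24.4 against 7.38 and 15.5 CPM). Other macrophage and monocyte genes, 13 tested, had a median of 0.74 with no call, and 3 rose with the mouse as a block. The listed stellate cell, fibroblast and matrix genes summed to 1357 and 1184 CPM in adjacent liver and 3400.2 and 3809 CPM in tumours. Their median was 0.67 with no call, and Reln was at 26.0 and 31.5 against 145 and 156 CPM (adjusted p = 0.0664). Of the 28 tested, 8 rose and 1 fell in the fit to the 4 mA3 libraries, against 7.94% and 7.63% of all genes. None was called with the mouse as a block. The collagen chain gene Col4a3 and Aebp1 were outside that list and rose, by 5.10 ± 0.792 and 5.24 ± 0.544 (adjusted p = 0.0349 and 0.0334).

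Lymphocyte markers gave no call in the 8-library fit. Cd3e and Cd8a, of T cells, stayed at or below 1.31 and 2.05 CPM, and the 17 tested T and NK cell markers had a median of -0.38. The 16 tested B and plasma cell markers summed to 49.1 and 111 CPM in adjacent liver and to 114 and 353 CPM in tumours. Their median was 0.79, and -0.45 without tumour 2, and 2 of them rose with the mouse as a block. The listed interferon-stimulated genes (29, median -0.03), antigen presentation genes (17, median 0.31) and endothelial markers (26, median 0.22) gave no call. H2-Q6, an antigen presentation gene outside the list, rose from 39.2 and 33.0 CPM to 147 and 113 CPM (1.84 ± 0.332, adjusted p = 0.0481). Of 15 tested bile duct and progenitor markers, 12 lay above 0 with a median of 0.59, and Prom1 alone rose. In the fit to the 4 mA3 libraries 5 rose, against 7.94% of all genes. Sox9, a factor of bile duct and progenitor cells, was at 5.49 and 1.37 CPM in adjacent liver and 19.7 and 20.4 CPM in tumours (adjusted p = 0.123), while the bile duct keratin gene Krt19 was at 0.871 and 0.824 against 0.344 and 0.332 CPM. The part of these cell types in the other differences was not tested.

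**Figure D3:**
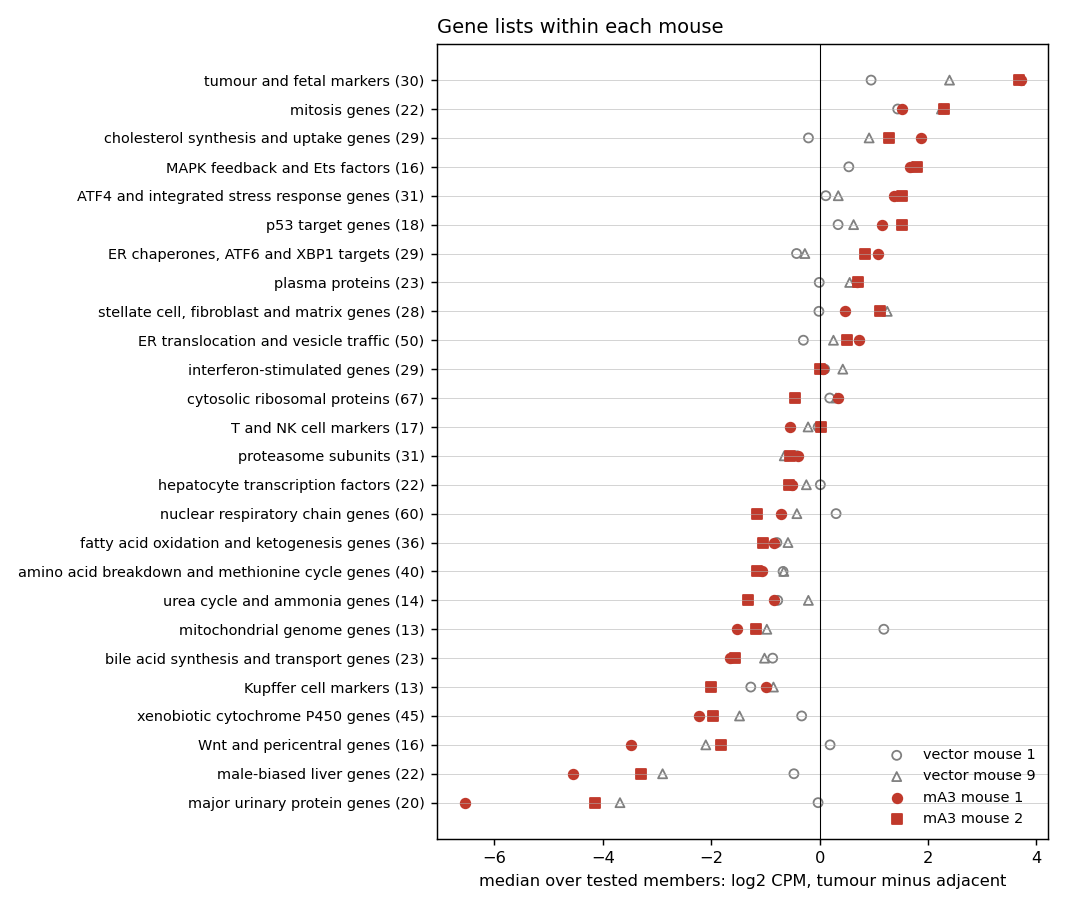
Median over each list's tested members (number in brackets) of the log2 CPM difference, tumour minus adjacent, within each mouse: filled red for mA3 mice 1 (circle) and 2 (square), open grey for vector mice 1 (circle) and 9 (triangle). In mA3 mice, tumour and fetal markers are highest at 3.71 and 3.68, and major urinary protein genes lowest at -6.54 and -4.15.

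The tumours of the mice were unlike in genes of the pericentral hepatocyte, a cell type found around the central vein where Wnt signalling keeps glutamine synthesis and several P450 enzymes on. Of 16 tested Wnt and pericentral genes, 15 had both tumours below both adjacent libraries, against 28.3% of all genes. In the fit to the 4 mA3 libraries 12 fell, against 7.63% of all genes, and none passed in the 8-library fit. The median was -3.47 in mouse 1 and -1.81 in mouse 2. Glul, glutamine synthetase, was at 1031 and 914 CPM in adjacent liver, 17.8 CPM in tumour 1 and 117 CPM in tumour 2 (-3.85 ± 1.04, adjusted p = 0.0950). Cyp2e1, a P450 that activates DEN, was at 7629 and 6588 CPM, then 81.6 and 713 CPM (-4.16 ± 1.11, adjusted p = 0.0939). Axin2, a direct Wnt target, was low in both tumours, at 1.08 and 1.20 CPM against 10.7 and 5.29 CPM (-2.80 ± 0.653, adjusted p = 0.0718).

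With 1 library per tumour, the differences between the tumours have no replicate check and are described only. The genes highest in tumour 2 over tumour 1 by CPM ratio (mean of at least 20 CPM) were Car3, a muscle-type carbonic anhydrase, Cyp2c29, Cyp2c50, Cyp2e1, Mup7 and the imprinted gene Peg3. Car3 was at 18.4 CPM in tumour 1 and 272 CPM in tumour 2, and Mup7 at 85.5 and 863 CPM. Except for Peg3, these genes were higher in both adjacent libraries than in either tumour. Highest in tumour 1 were Csn3, a milk casein, Catsperd, Igsf23, Ltbp3, Nqo1 and Tspan8. Tspan8, a tetraspanin, was at 396 and 48.7 CPM in the tumours and at 1.70 and 3.30 CPM in adjacent liver. Nqo1, a quinone reductase under NRF2, was at 37.5 CPM in tumour 1, above the 4.77 CPM of tumour 2 and the 7.89 and 9.54 CPM of adjacent liver.

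**Figure D4:**
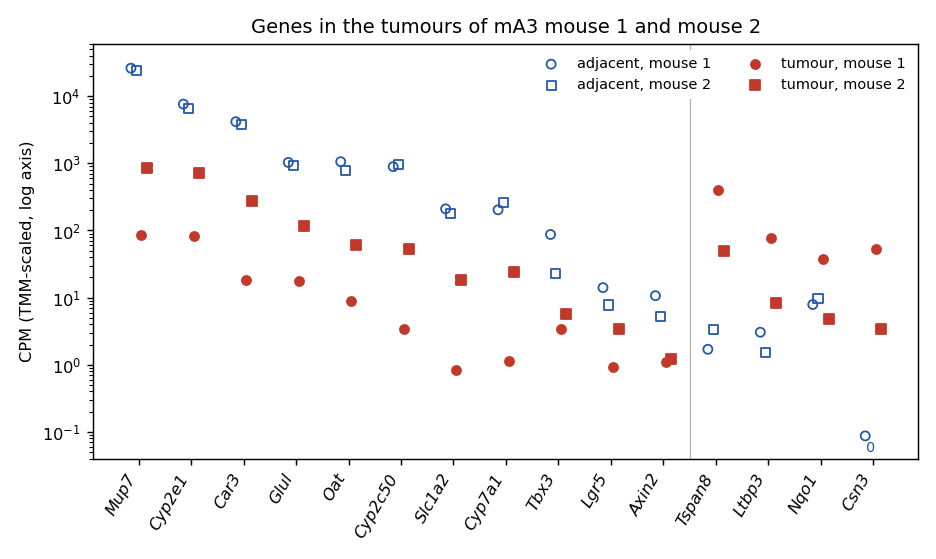
CPM on a log axis in each mA3 library for 11 hepatocyte genes that were lower in tumours (left of the line) and 4 genes that were higher in tumour 1 than in tumour 2 (right); open blue symbols are adjacent liver, filled red tumours, circles mouse 1, squares mouse 2, and a 0 marks no count. Glul falls to 17.8 CPM in tumour 1 and 117 CPM in tumour 2, whereas Axin2 is alike in both (1.08 and 1.20 CPM).

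Whether the mA3 difference departed from that of vector mice was tested as an interaction over all 8 libraries. No gene passed in edgeR after adjustment, and 749 had an unadjusted p under 0.05, 305 higher in mA3 mice (2.03%) and 444 lower (2.96%). For the interaction, limma-voom called none, with 640 at an unadjusted p under 0.05, whereas edgeR without the filter on low counts called 316. DESeq2 called 12 of 14136 genes, 5 higher (0.0354%) and 7 lower (0.0495%). The 5 were Hspa5, Abcc4, Pdia4, Trib3 and Ak7, and the 7 were Adh6-ps1 (a pseudogene with near-identical relatives), Leap2, Fam25c, G6pc, Gm13775, Gm26588 and Cfd. Hspa5 was at 941 and 777 CPM in vector adjacent liver and at 584 and 566 CPM in vector tumours, so vector tumours lay below vector adjacent liver. Its edgeR interaction was 2.80 ± 0.521 (unadjusted p = 0.000636, adjusted p = 0.842). For Abcc4 the vector libraries held 6.37 and 6.98 CPM in adjacent liver and 4.24 and 4.97 CPM in tumours, with an interaction of 3.24 ± 0.467 (unadjusted p = 0.000113, adjusted p = 0.842). Leap2, an antimicrobial peptide that also blocks the ghrelin receptor, fell in mA3 mice from 13.6 and 29.9 CPM to 2.26 and 3.98 CPM (-2.79 ± 0.502, adjusted p = 0.0481), against 14.4 and 17.0 CPM in vector adjacent liver and 26.2 and 15.7 CPM in vector tumours.

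By gene group, most ER chaperones had a larger difference in mA3 mice than in vector mice. Their median was 1.00 in mA3 mice and -0.26 in vector mice (-0.43 in mouse 1 and -0.27 in mouse 9). At an unadjusted p under 0.05, 14 of 29 had a positive interaction and none a negative one. Without the tumour of vector mouse 1, which stood apart, 11 of 29 did, against a background of 1.12% higher and 1.04% lower. Pdia4, Hsp90b1, Hyou1, Manf and Creld2 were among both counts, with unadjusted p of 0.00152, 0.0111, 0.0104, 0.00840 and 0.0176 with all libraries. Cholesterol synthesis genes had 4 members higher and 1 lower with all libraries, and 7 higher without the tumour of vector mouse 1. ER traffic genes had 9 of 50 higher, and 3 without that library.

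The interactions of several groups with lower values in tumours changed with the tumour of vector mouse 1. With all libraries, 16 of 60 respiratory chain genes, 16 of 20 Mup genes and 8 of 22 male-biased genes had a negative interaction at an unadjusted p under 0.05. Without that library the counts were 0, 0 and 0, and the share of all genes with a negative interaction at that p went from 2.96% to 1.04%. The median interaction kept its sign, going from -0.90 to -0.61 for respiratory chain, from -3.95 to -1.74 for Mup and from -2.62 to -0.78 for male-biased genes. Periportal genes had 3 of 10 with a negative interaction both with and without that library, and amino acid breakdown genes 4 and then 3 of 40. The plot of mA3 against vector differences shows respiratory chain genes spread from left to right at a near constant level, while 28 of the 29 ER chaperones lie above the diagonal. Most of the 178 genes had the same sign in vector mice: 115 of the 118 rising genes were above 0 there, with a median of 2.21, and 57 of the 60 falling genes below 0, with a median of -1.22. Over all 15009 genes, 52.7% lay above 0 in vector mice, with a median of 0.04.

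**Figure D5:**
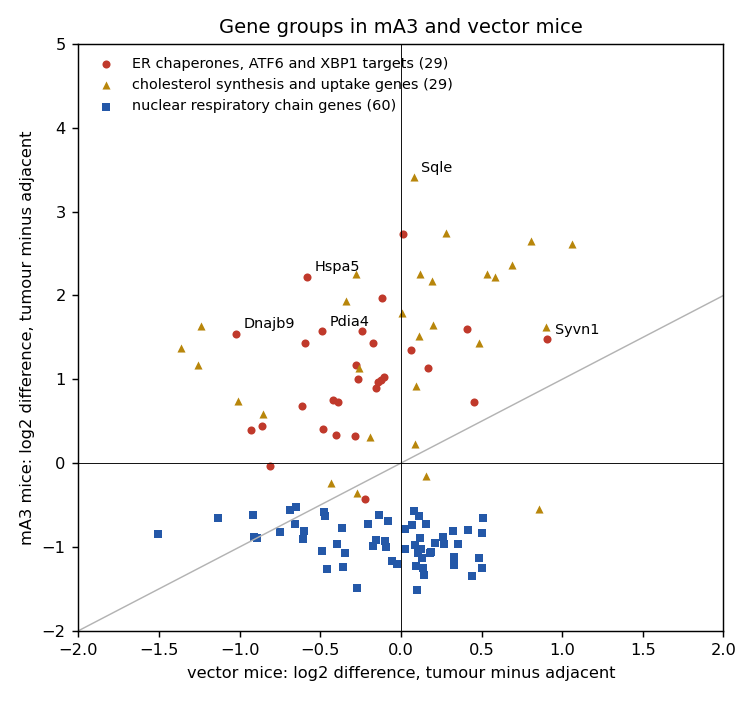
Fitted log2 difference, tumour minus adjacent, in vector mice (horizontal) and mA3 mice (vertical) for ER chaperones (29, red circles), cholesterol synthesis and uptake genes (29, ochre triangles) and nuclear respiratory chain genes (60, blue squares); on the grey diagonal the values are equal. Hspa5 lies at -0.58 and 2.22, and all respiratory chain genes lie between -1.52 and -0.53 on the vertical axis.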

How the data were processed

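For each of 34745 genes and each library, the deposited table held a count of reads and an FPKM value, as named per the file headers. All counts were whole numbers, and the authors' FPKM values matched these counts within 1% for the 7555 genes whose 8 libraries each had 100 or more counts. No aligner, counter, annotation release or strand setting is stated in the labels or headers, so overlapping and antisense genes may share reads. The submitters' processing notes name build mm8 and Agilent Feature Extraction 10.7, a microarray program. Positions matched GRCm38: of 34344 identifiers found in GENCODE vM21, all lay on the same chromosome and 81.7% had start and end within 1 bp. No value column was left unused (0).

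The counts were analysed with edgeR 4.0.16 in R 4.3.3: filterByExpr by group, TMM scaling and a quasi-likelihood fit with 1 coefficient per group to all 8 libraries (4 residual degrees of freedom), with Benjamini-Hochberg adjustment over all 15009 genes at 0.05. Log2 CPM used a prior count of 2. FPKM values were checked and not tested. Counting intervals are exact and cover counting error only. Alternatives were DESeq2 1.42.0, limma-voom 3.58.1, RLE scaling, no filter on low counts, the 4 mA3 libraries alone, the mouse as a block, and leaving out each library. Code was tested on simulated counts with 39% variation, in which 100 genes changed by 3 on the log2 scale and 100 by 1.5. The 8-library fit called 81 of the former and 6 of the latter. At that spread it missed most changes of 1.5. Tumour and adjacent libraries of a mouse share its number in the titles, which was read as pairing them: their deviations from the group means correlated at 0.175 in mA3 and 0.107 in vector mice.

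Members and the 59 gene lists were chosen with earlier results of these data known. Named were Apobec3, up to 15 rising and 15 falling genes with the largest difference (passing, no overlap, mean of at least 5 CPM, no predicted or Riken genes, accession-like symbols or pseudogenes), list members with the smallest p, fixed anchor genes, and the genes that differed most between the tumours (mean of at least 20 CPM). Most others are marked as chosen after their values were seen, or are shown by motif or by DESeq2's interaction calls. Manf was likewise chosen after its values were seen. So were rising genes outside the lists they are set beside: Arfgap3, Fkbp11, Cyp4f16, Pck2, Pygb, Col4a3, Aebp1 and H2-Q6.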

Additional observations from a re-analysis of the deposited data

Results flagged for a closer look

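In 3 gene lists the median log2 CPM difference, tumour minus adjacent, lay on 1 side of 0 in both mA3 mice and on the other in both vector mice, and the difference of the lists was not tested. The ER chaperones had a fitted median of 1.00 in mA3 mice, with 1.07 and 0.83 by mouse, against -0.43 and -0.27 in vector mice. Hypoxia genes (11 tested, no call) had a fitted median of 0.22, with 0.35 and 0.36 by mouse, against -0.18 and -0.16, and their fitted median changed sign when a library was left out. Neutrophil markers (5 tested, no call) had a fitted median of -0.61, with -0.25 and -0.09 by mouse, against 0.24 and 0.01, at a summed level of 12.9 and 7.89 CPM in adjacent liver and 7.77 and 6.17 CPM in tumours.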

How the results depend on the processing

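The 118 rising and 60 falling genes became 1080 and 983 with no filter on low counts, 1157 and 1112 in the fit to the 4 mA3 libraries alone, 825 and 782 in DESeq2, and 65 rising in limma-voom, where 103 of the 178 genes were shared. RLE scaling shared 177. With the replicate block for the pairing by mouse there were 317 and 243, sharing 175 of the 178. Leaving out 1 library in turn gave 0 to 610 rising and 0 to 482 falling genes. The lowest values came without any 1 mA3 library, which leaves a lone sample assumed to vary like the other groups. The interaction gave 316 genes without the filter and 12 in DESeq2. The cause was not tested. Leaving out 1 library at a time, 13 of 58 list medians crossed 0. Where the median had exceeded the spread between replicates, they ran from -0.20 to 0.032 for coagulation and complement (highest without mA3 adjacent library 2), from -0.36 to 0.14 for lipogenesis (highest without the same library), from -0.36 to 0.47 for hypoxia genes (lowest without it, -0.13 without tumour 1), from -0.64 to 0.054 for neutrophil markers (highest without adjacent library 1), from -0.45 to 1.75 for B and plasma cell markers and from -0.030 to 0.67 for antigen presentation genes (both lowest without tumour 2). Of the 177 named genes 50 passed, none of them changed sign under any alternative run, and all 50 missed the threshold without any 1 mA3 library. With 2 libraries a group, genes of few counts carry wide errors.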

Other observations

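Several genes that rose were members of none of the gene lists and were picked after their values were seen. Aldh1l2, a mitochondrial enzyme of folate metabolism, was at 0.261 and 0.755 CPM in adjacent liver and at 12.7 and 10.5 CPM in tumours (4.55 ± 0.790, edgeR adjusted p = 0.0447). Pck2, the mitochondrial form of phosphoenolpyruvate carboxykinase, rose from 4.62 and 1.92 CPM to 32.8 and 26.6 CPM. Mst1r, the receptor for macrophage-stimulating protein, rose from 0.871 and 0.481 CPM to 14.8 and 17.0 CPM. Creb3l2, a transcription factor held in the ER membrane, rose from 24.7 and 20.2 CPM to 94.9 and 108 CPM. In each of these 4 genes both tumours lay above both adjacent libraries.

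Among the genes that fell, Prlr, the prolactin receptor, went from 84.7 and 92.6 CPM to 18.6 and 17.4 CPM. Ephx2, soluble epoxide hydrolase, went from 616 and 682 CPM to 76.3 and 94.3 CPM (-2.93 ± 0.485, edgeR adjusted p = 0.0437). Slc13a5, the citrate carrier of the hepatocyte membrane, went from 3.09 and 2.47 CPM to 0.0984 and 0.166 CPM. The tumours were close to each other for Prlr and Ephx2.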
